A study of Mus musculus with 22 samples.

Results

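The 9 genes examined here make the polyamines putrescine, spermidine and spermine, control their level or break them down: Odc1, Srm, Sms, Amd1, Azin1, Oaz1, Oaz2, Sat1 and Smox. They were taken as a list of named genes, and every probe set of the array annotated to any of them was used, whatever its values. Of the 9 genes, 7 had at least 1 probe set with a single gene symbol, and 6 (Odc1, Srm, Azin1, Oaz1, Oaz2 and Sat1) stood among the 6437 genes tested. By probe set there were 15 of 22690, of which 11 named 1 gene and 4 also named a pseudogene. Of these 15, 14 passed the filter on dim probe sets, which asked for a log2 value above 4 on at least 4 arrays. Sms was measured only by 3 probe sets that its pseudogene Sms-ps shares, Smox did not pass the filter, and Amd1 was not analysed here because no probe set was annotated to it in the table used.

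The study followed B cells through lymphoma formation driven by Myc, on 22 Affymetrix MOE430A arrays, in mice of the C57Bl/6 background. Wild type B cells (4 arrays) and premalignant B cells (5 arrays) came from littermates aged 4 to 6 weeks, the premalignant ones carrying the Eμ-Myc transgene, in which an immunoglobulin heavy chain enhancer drives Myc in the B lineage. Malignant samples (13 arrays) were lymphomas of 13 independent Eμ-Myc mice, and the same age on their labels was not used here. B cells were purified from bone marrow or spleen with magnetic beads against B220 or IgM, and the sources do not tell which tissue and antibody served which array. Wild type and premalignant arrays are labelled biological replicates without a statement that each came from a separate mouse, so the p-values measure only the spread between these samples, which may be technical.

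Polyamines are small positively charged molecules that bind RNA and DNA and are needed for growth. Ornithine decarboxylase, the product of Odc1, makes putrescine from ornithine and is a textbook target of Myc. The spermidine synthase Srm and the spermine synthase Sms then add aminopropyl groups, which come from S-adenosylmethionine after the enzyme encoded by Amd1 has decarboxylated it. The pathway limits itself through antizymes, which bind ornithine decarboxylase and deliver it to the proteasome and whose own synthesis needs a ribosomal frameshift that polyamines promote. These levels of control act on proteins, which the arrays did not measure.

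The bases before the start of the genes were searched for the E-box CACGTG, to which Myc binds with its partner Max, and for the related letters CACGCG, on both strands, and no 6 bases can match both. The windows are the 250 bases before each start in the RefSeq table of mouse promoters (GRCm38.p6), in which 7 of the 9 genes were found. Srm and Azin1 were not among them. CACGTG stood in 6.02% of all 32851 windows and CACGCG in 7.62%. The following windows are shown because each holds a motif, in 2 genes of synthesis (Odc1 and Sms) and in the antizyme Oaz1, which was called in no comparison. Capitals mark the motif on either strand. The Odc1 window is chr12:17544623-17544872 on the plus strand, the upstream one of the 2 Sms windows is chrX:157492288-157492537 on the minus strand, and the Oaz1 window is chr10:80826406-80826655 on the plus strand.
Odc1: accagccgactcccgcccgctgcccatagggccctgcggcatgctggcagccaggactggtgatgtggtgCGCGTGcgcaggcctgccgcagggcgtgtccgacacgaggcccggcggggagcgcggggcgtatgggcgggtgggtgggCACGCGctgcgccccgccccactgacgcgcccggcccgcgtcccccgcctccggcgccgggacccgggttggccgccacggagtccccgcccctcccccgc
Sms: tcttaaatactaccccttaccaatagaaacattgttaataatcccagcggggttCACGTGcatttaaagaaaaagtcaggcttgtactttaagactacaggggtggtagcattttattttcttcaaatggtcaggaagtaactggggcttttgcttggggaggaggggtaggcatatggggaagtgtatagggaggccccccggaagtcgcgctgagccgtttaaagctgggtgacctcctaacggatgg
Oaz1: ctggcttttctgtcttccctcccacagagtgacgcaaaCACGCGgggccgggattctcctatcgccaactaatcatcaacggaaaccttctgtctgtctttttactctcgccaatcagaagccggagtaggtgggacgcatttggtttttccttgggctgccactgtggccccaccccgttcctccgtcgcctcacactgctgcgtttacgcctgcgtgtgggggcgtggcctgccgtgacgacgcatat
The Odc1 window held CACGCG at 2 places, whose first bases lay 180 and 101 bases before the start, and no CACGTG. The E-boxes best known in Odc1 lie in its first intron, outside this window. The Sms window held 1 CACGTG, 196 bases before the start, and the other Sms window 1 CACGCG at 140 bases. The Oaz1 window held 1 CACGCG, 212 bases before the start. The windows of Amd1, Oaz2, Sat1 and Smox held neither motif. G and C made up 80.0% of the Odc1 window, 75.2% of the Sms window with CACGCG and 58.0% of the Oaz1 window. The share of 7.62% is over all windows, whatever their composition. A match describes the letters only and does not show binding.

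The transgene was visible in Myc itself, which was 7.59-fold higher in premalignant than in wild type arrays (adjusted p = 1.4e-05) and 5.83-fold higher in malignant than in wild type arrays (adjusted p = 5.9e-07). Of 8 markers that define B cells and were on the array, Pax5 was below log2 4 on every array and the other 7 had means above it in each group. Their summed intensity was 24509 to 29603 in wild type, 17024 to 21472 in premalignant and 3514 to 9690 in malignant arrays. The 3′ signal of beta-actin exceeded its 5′ signal by 0.77 ± 0.10 in wild type, 0.70 ± 0.09 in premalignant and 1.93 ± 0.37 in malignant arrays (log2, SD, n = 4, 5 and 13), and the malignant range did not overlap the others. The summed intensity of 8 stromal and endothelial markers, among which Cdh5 and Vwf were below log2 4 on every array, was 260 to 295, 135 to 192 and 297 to 3561 in the 3 stages. That of 9 monocyte and macrophage markers, with Cd14 below that level on every array, was 875 to 2296, 430 to 1780 and 824 to 4726. For 5 plasma cell markers, with Prdm1 below that level throughout, it was 2663 to 4592, 1237 to 3193 and 217 to 917, and for 7 erythroid markers, with Hba-a1 below it throughout, 64 to 1137, 55 to 3159 and 46 to 121. For 8 neutrophil markers it was 71 to 635, 442 to 918 and 66 to 6032. For 8 T cell markers, of which 5 were below log2 4 on every array, it was 63 to 71, 60 to 87 and 55 to 83. The sums pool genes that moved apart. In malignant against premalignant arrays, 3 of 5 stromal and endothelial genes tested were called higher and 1 lower. Of 7 monocyte and macrophage genes, 2 were called higher and 2 lower, beside 24.8% and 17.3% of all genes. Pecam1 averaged 7.69, 6.62 and 5.52 in the 3 stages and Col3a1 3.34, 3.29 and 8.09. Csf1r averaged 9.10, 8.57 and 7.04, and Lyz2 6.92, 7.00 and 9.78. Whether these shifts take part in any change of the malignant arrays below was not tested. In these bulk samples, fewer cells of a type and less RNA per cell cannot be told apart. Within its group, premalignant replicate 1 correlated least with the other arrays (mean r = 0.9379), as did wild type replicate 2 in its own (0.9565). Values without both arrays are given below for Odc1, Oaz2, Sat1 and Enoph1.

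In premalignant against wild type arrays, 1 of the 6 polyamine genes tested, Srm, was called higher and none lower, at a Benjamini-Hochberg adjusted p under 0.05 by limma. Of all genes 26.8% were called, 12.7% higher and 14.1% lower. In malignant against premalignant arrays, Odc1, Srm and Oaz2 were called higher and none lower, beside 42.1% of all genes, 24.8% higher and 17.3% lower. In malignant against wild type arrays the same 3 genes were called higher and none lower, beside 61.5% of all genes, 31.8% higher and 29.7% lower. The 3 comparisons share their arrays by pairs, so they are not separate evidence. The median log2 change of the 6 genes was 0.02, 0.53 and 0.33 in the 3 comparisons, and that of all genes was -0.05, 0.09 and 0.04. The groups did not overlap for 1, 1 and 2 of the 6 genes, against 24.1%, 12.2% and 33.7% of all genes. Set against these shares, the counts say little about the 6 genes as a group, and the results lie in which genes moved and by how much.

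Each probe set was also tested on its own. In premalignant against wild type arrays 2 of the 14 probe sets were called higher and none lower, beside 24.4% of all probe sets (12.7% higher, 11.7% lower). In malignant against premalignant arrays 7 were called higher and 1 lower, beside 43.2% (23.2% higher, 19.9% lower). In malignant against wild type arrays 7 were called higher and none lower, beside 60.8% (30.5% higher, 30.3% lower). The probe sets called higher in both malignant comparisons were those of the synthetic enzymes, 3 for Odc1, 1 for Srm and 2 for Sms or Sms-ps, with 1 of the 2 for Oaz2. The probe set called lower was 1 of the 2 for Azin1.

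**Figure D1:**
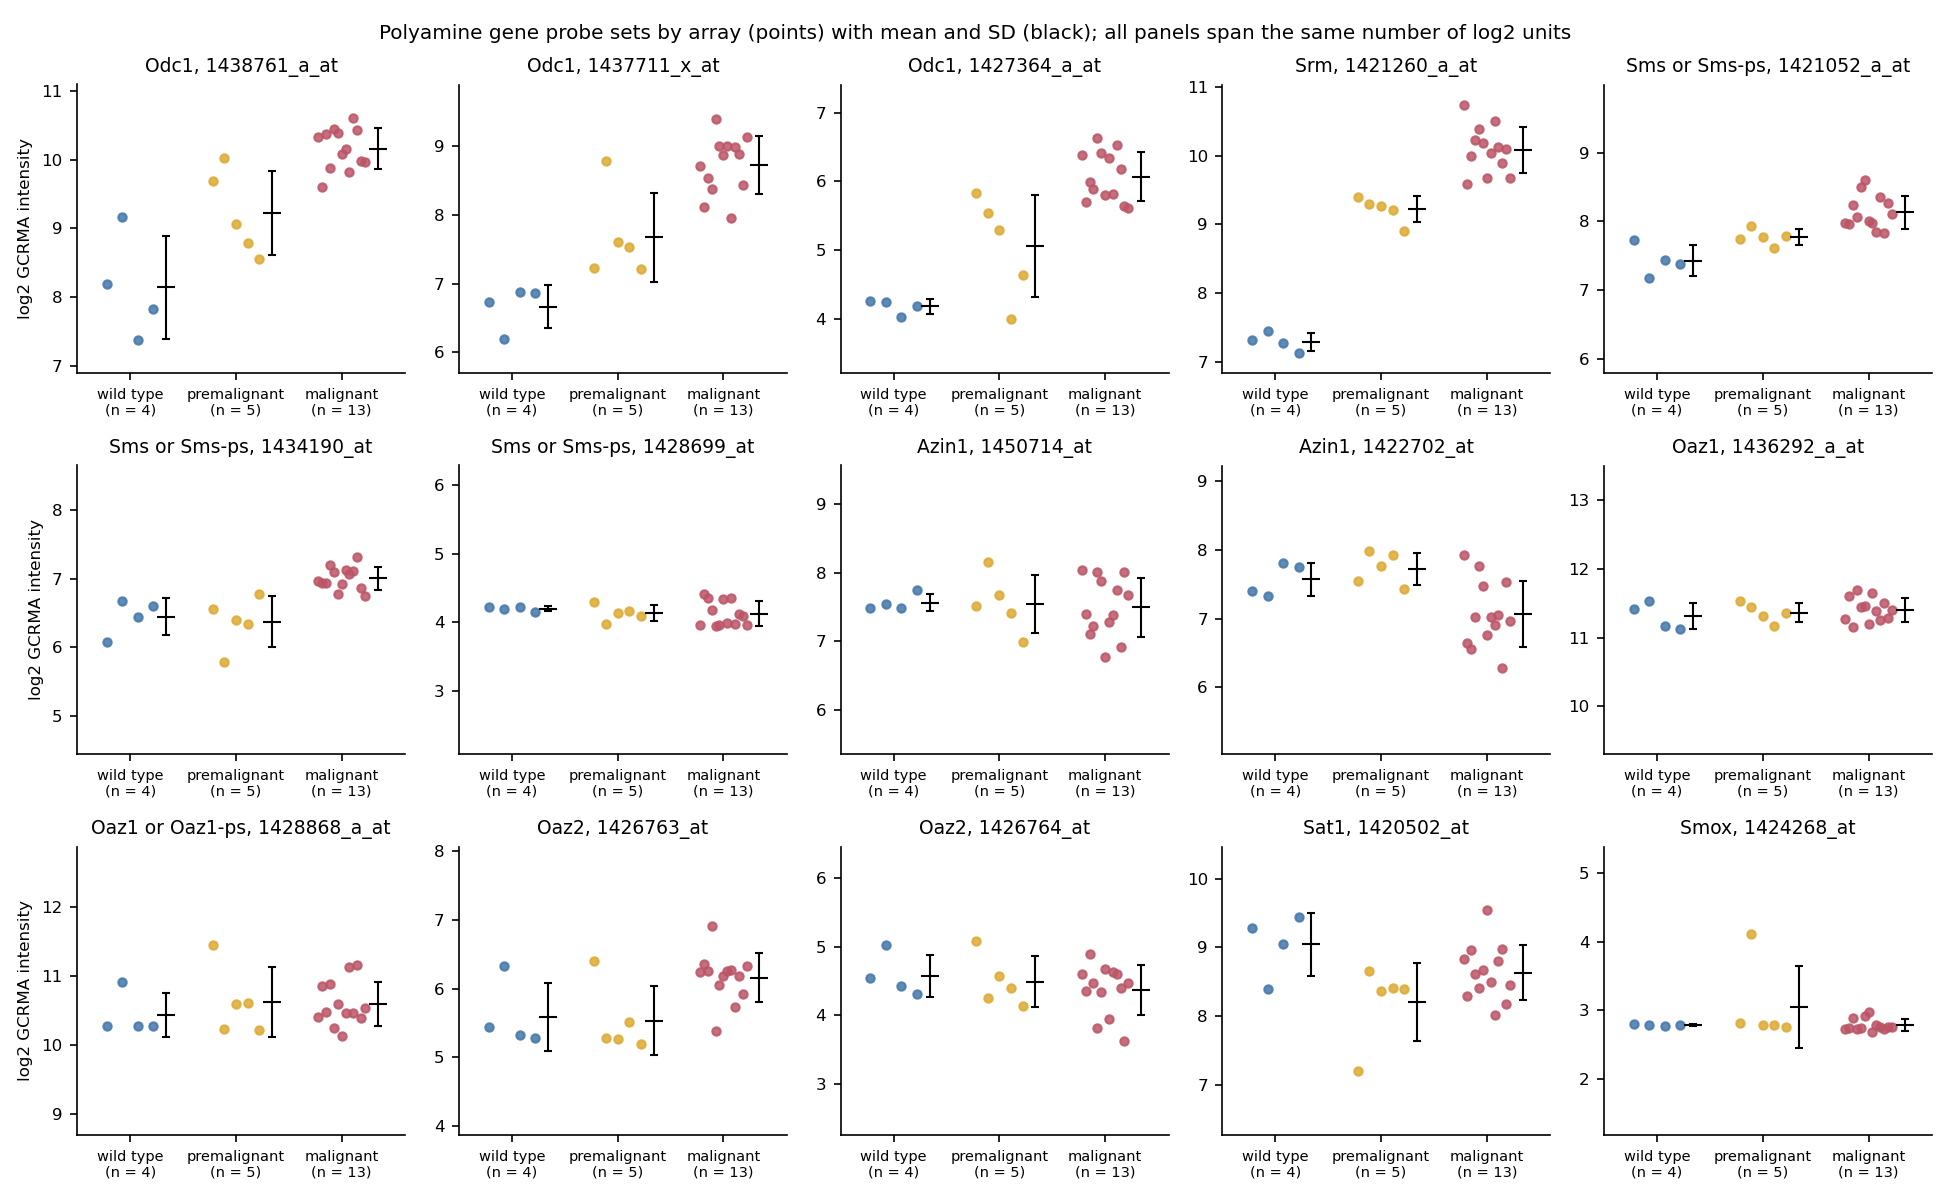
Log2 intensity of the 15 polyamine probe sets on each array, in 1 panel per probe set, with wild type, premalignant and malignant arrays from left to right. Points are arrays and the black marks give the mean and SD of each stage. Levels of different panels cannot be set against each other. Srm separates all 3 stages (means of 7.29, 9.22 and 10.09), Odc1 is highest in malignant arrays in each of its 3 panels, and the stages overlap in both Oaz1 panels.

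Spermidine synthase gave the largest change of the 6 genes in both comparisons with wild type arrays, while Odc1 changed slightly more in malignant against premalignant arrays. Srm (probe set 1421260_a_at) stood at 7.32, 7.45, 7.27 and 7.13 on the 4 wild type arrays and at 9.40, 9.30, 9.27, 9.21 and 8.90 on the 5 premalignant arrays, as log2 intensity. The 13 malignant arrays lay between 9.58 and 10.74 with a median of 10.09. No array of one stage reached the range of another, so the stages were ordered without overlap. The means were 7.29 ± 0.14, 9.22 ± 0.19 and 10.09 ± 0.34 in wild type, premalignant and malignant arrays (SD, n = 4, 5 and 13). Srm rose 3.80-fold in premalignant against wild type arrays (log2 change 1.92, SE 0.14, 95% interval 1.62 to 2.23, adjusted p = 1.6e-05 by limma). It was a further 1.83-fold higher in malignant than in premalignant arrays (log2 change 0.87, SE 0.16, interval 0.53 to 1.21, adjusted p = 3.0e-04). Against wild type the malignant arrays were 6.94-fold higher (log2 change 2.80, SE 0.18, adjusted p = 2.4e-10). Every alternative processing kept the Srm call, with log2 changes of 1.87 to 2.18, 0.79 to 1.01 and 2.74 to 3.19 in the 3 comparisons. Myc itself changed by -0.38 on the log2 scale in malignant against premalignant arrays (adjusted p = 0.255), the comparison in which Srm rose this second time.

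Odc1, the enzyme of the first step, was measured by 3 probe sets, and all 3 were higher in malignant than in premalignant and in wild type arrays. The probe set with the highest mean, 1438761_a_at, read 8.19, 9.16, 7.38 and 7.83 on the wild type arrays and 9.69, 10.02, 9.07, 8.79 and 8.56 on the premalignant arrays, in log2 intensity. The malignant arrays lay between 9.61 and 10.61 with a median of 10.16. Wild type replicate 2 was the highest of its group and reached into the premalignant range, while every malignant array lay above every wild type array. The means were 8.14 ± 0.76, 9.23 ± 0.61 and 10.16 ± 0.30 in wild type, premalignant and malignant arrays. The log2 change in premalignant against wild type arrays was 1.09 (SE 0.39, 95% interval 0.23 to 1.94), which did not pass (adjusted p = 0.06). With all arrays kept it passed in a fit of all 3 groups (adjusted p = 0.012), with a stricter filter (0.046), with median centring (0.048) and with the mean over its probe sets (0.017). It also passed without wild type replicate 2 (log2 change 1.43, adjusted p = 0.015) and without premalignant replicate 5 (1.25, adjusted p = 0.043), and without both arrays that stood apart it was 1.31 (adjusted p = 0.028). Over all alternatives its log2 change was 0.83 to 1.43 and its adjusted p was 0.0073 to 0.162. In malignant against premalignant arrays Odc1 rose 1.91-fold (log2 change 0.93, SE 0.20, interval 0.51 to 1.36, adjusted p = 0.0012), and 8 of 13 malignant arrays exceeded every premalignant array. A fit blocked on replicate number, although same-numbered arrays did not pair, did not call Odc1 here (0.90, adjusted p = 0.067). Against wild type it rose 4.05-fold in malignant arrays (log2 change 2.02, SE 0.23, adjusted p = 7.0e-07), and this call held in every alternative, with log2 changes of 1.77 to 2.41.

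The second Odc1 probe set, 1437711_x_at, carries a suffix that Affymetrix gives where some probes can also match other transcripts. It read 6.73, 6.20, 6.88 and 6.86 on wild type arrays, 7.23, 8.79, 7.61, 7.53 and 7.21 on premalignant arrays and 7.96 to 9.40 on malignant arrays, with a malignant median of 8.88. The premalignant and wild type arrays did not overlap, and premalignant replicate 2 lay well above the other premalignant arrays. The change in premalignant against wild type arrays was 2.01-fold (log2 change 1.00, 95% interval 0.32 to 1.69, adjusted p = 0.039 over all probe sets). That call was lost without any single wild type array (adjusted p = 0.061 to 0.101) and without premalignant replicate 3 (0.073) or 4 (0.064), without both arrays that stood apart (0.076) and with no filter (0.113). In malignant arrays it was 2.08-fold higher than in premalignant (adjusted p = 0.0018) and 4.16-fold higher than in wild type arrays (adjusted p = 2.8e-07). The first of these 2 calls was lost in the fit blocked on replicate number (0.96, adjusted p = 0.089).

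The dimmest Odc1 probe set, 1427364_a_at, read 4.26, 4.25, 4.02 and 4.19 on wild type arrays, just above the level of the filter, and 5.83, 5.54, 5.29, 3.99 and 4.64 on premalignant arrays. Malignant arrays lay between 5.61 and 6.63 with a median of 5.99. Premalignant replicate 4 was the lowest array of all, and the other 4 premalignant arrays lay above the wild type arrays. Its log2 change in premalignant against wild type arrays was 0.88 (95% interval 0.15 to 1.60, adjusted p = 0.078), and it passed without premalignant replicate 4 (1.14, adjusted p = 0.011). In malignant arrays it was 2.02-fold higher than in premalignant (adjusted p = 0.0023) and 3.70-fold higher than in wild type arrays (adjusted p = 7.5e-08). The 3 Odc1 probe sets thus gave log2 changes of 0.88 to 1.09 in premalignant against wild type and 0.93 to 1.05 in malignant against premalignant arrays.

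**Figure D2:**
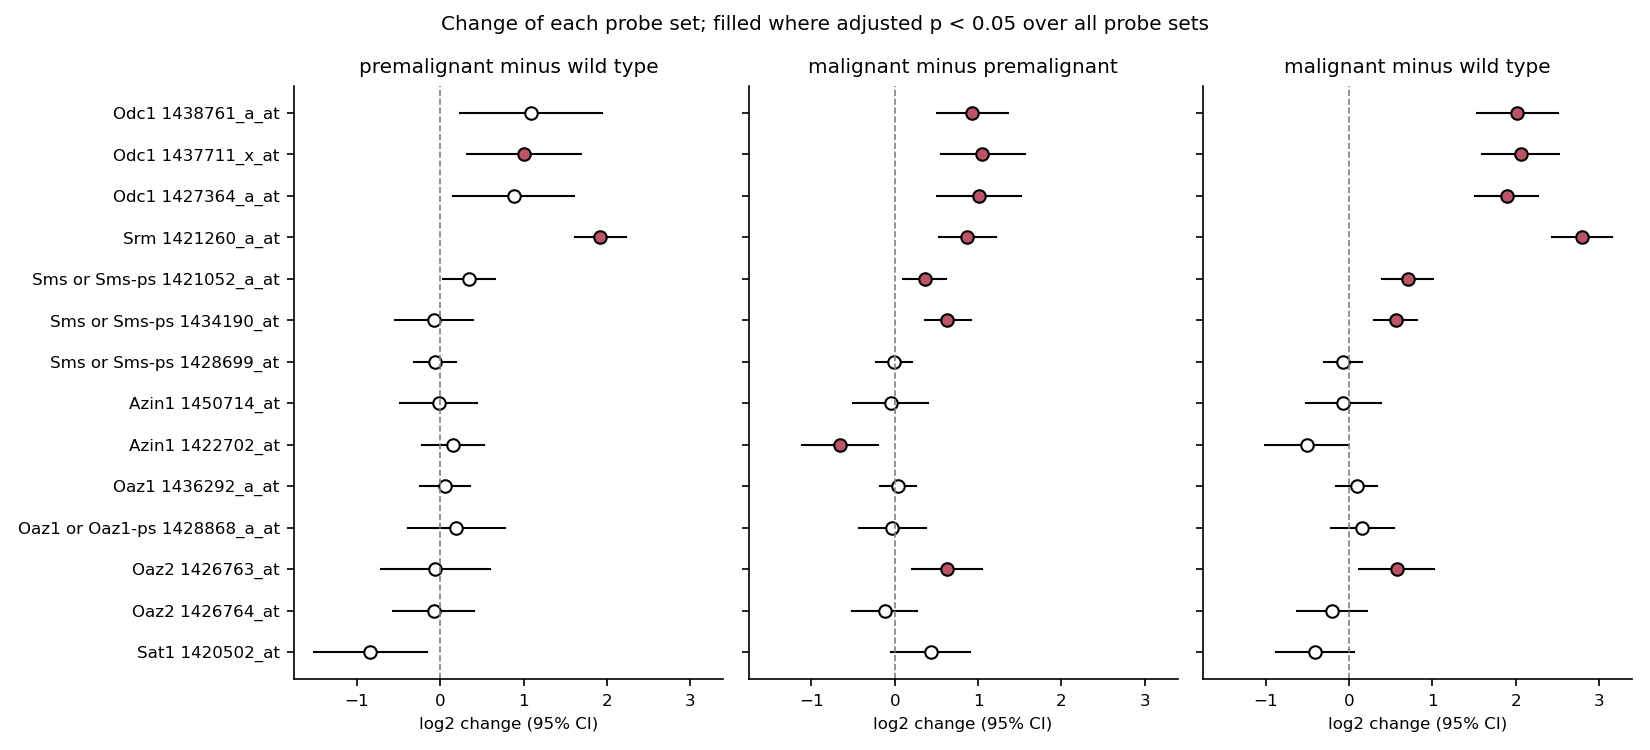
Log2 change of the 14 polyamine probe sets past the filter in premalignant minus wild type, malignant minus premalignant and malignant minus wild type arrays, with 95% intervals from limma. Filled points have an adjusted p under 0.05 over all probe sets. Srm is the one probe set with a log2 change near 2 already in premalignant arrays, at 1.92, and the Odc1 probe sets lie near 2 in malignant minus wild type arrays.

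Spermine synthase could be read only from probe sets shared with Sms-ps, and their values are given to neither gene alone. Probe set 1421052_a_at read 7.72, 7.18, 7.44 and 7.37 on wild type arrays, 7.74, 7.93, 7.77, 7.61 and 7.79 on premalignant arrays and 7.83 to 8.60 on malignant arrays, with a malignant median of 8.06. The 3 stages stepped upward by little, and wild type replicate 1 lay among the premalignant arrays. In malignant arrays it was 1.29-fold higher than in premalignant (log2 change 0.36, 95% interval 0.10 to 0.62, adjusted p = 0.025) and 1.63-fold higher than in wild type arrays (0.71, interval 0.40 to 1.01, adjusted p = 3.8e-04). The first of these calls was lost without premalignant replicate 4 (0.32, adjusted p = 0.074). Centring arrays on the hybridisation spikes (0.50, adjusted p = 0.139) or blocking on replicate number (0.38, adjusted p = 0.130) also ended it. Its log2 change of 0.34 in premalignant against wild type arrays (interval 0.03 to 0.65) did not pass (adjusted p = 0.101), although it did without wild type replicate 1 (0.44, adjusted p = 0.05, under the threshold before rounding).

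The second of these, 1434190_at, read 6.07, 6.67, 6.44 and 6.60 on wild type arrays, 6.56, 5.78, 6.40, 6.34 and 6.78 on premalignant arrays and 6.74 to 7.31 on malignant arrays, with a malignant median of 6.96. Here the wild type and premalignant arrays overlapped, and 11 of 13 malignant arrays lay above both. It was 1.55-fold higher in malignant than in premalignant (log2 change 0.63, 95% interval 0.36 to 0.91, adjusted p = 7.7e-04) and 1.47-fold higher in malignant than in wild type arrays (0.56, adjusted p = 7.7e-04). The premalignant change against wild type was -0.08 (interval -0.54 to 0.39, adjusted p = 0.828). Among the 13 lymphomas these 2 probe sets did not vary together (Pearson r = -0.37, Spearman rho = -0.40, a description over 13 arrays). The third, 1428699_at, averaged 4.20 ± 0.03, 4.13 ± 0.12 and 4.13 ± 0.18 in the 3 stages, close to the level of the filter, and was called in no comparison.

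Oaz1, the antizyme made in nearly all cells, was called in no comparison. Probe set 1436292_a_at read 11.42, 11.53, 11.17 and 11.13 on wild type arrays, 11.53, 11.44, 11.32, 11.17 and 11.36 on premalignant arrays and 11.15 to 11.69 on malignant arrays, with a malignant median of 11.40. The 3 stages overlapped almost wholly. The log2 changes were 0.05 (95% interval -0.25 to 0.35) in premalignant against wild type, 0.04 (-0.18 to 0.26) in malignant against premalignant and 0.09 (-0.16 to 0.34) in malignant against wild type arrays. None passed (adjusted p = 0.824, 0.770 and 0.515), and every interval lay within -0.25 to 0.35. The probe set that Oaz1 shares with Oaz1-ps, 1428868_a_at, averaged 10.43 ± 0.32, 10.62 ± 0.50 and 10.60 ± 0.32, and its changes of 0.19, -0.03 and 0.16 did not pass either (adjusted p = 0.644, 0.917 and 0.459).

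Oaz2, a second antizyme, differed between its 2 probe sets. Probe set 1426763_at read 5.44, 6.33, 5.32 and 5.28 on wild type arrays, 6.40, 5.28, 5.27, 5.52 and 5.19 on premalignant arrays and 5.39 to 6.91 on malignant arrays, with a malignant median of 6.24. Wild type replicate 2 and premalignant replicate 1, the arrays that stood apart, each lay far above the rest of their group, and the other 7 arrays of these stages lay within 5.19 to 5.52. In malignant arrays this probe set was 1.55-fold higher than in premalignant (log2 change 0.63, SE 0.20, 95% interval 0.21 to 1.05, adjusted p = 0.017) and 1.49-fold higher than in wild type arrays (0.57, SE 0.21, interval 0.12 to 1.02, adjusted p = 0.028). Only 1 of 13 malignant arrays exceeded every premalignant array. Without both arrays that stood apart the changes were 0.85 (adjusted p = 0.0012) and 0.82 (adjusted p = 0.003). The first call was lost without premalignant replicate 2, 3 or 5 (adjusted p = 0.052, 0.052 and 0.06), and the second without wild type replicate 1, 3 or 4 (adjusted p = 0.081, 0.103 and 0.109). Blocking on replicate number also ended the first call (0.70, adjusted p = 0.076). Its change in premalignant against wild type arrays was -0.06 (interval -0.71 to 0.58, adjusted p = 0.902).

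The other Oaz2 probe set, 1426764_at, did not follow it. It read 4.54, 5.02, 4.43 and 4.31 on wild type arrays, 5.09, 4.25, 4.58, 4.40 and 4.14 on premalignant arrays and 3.63 to 4.89 on malignant arrays, with a malignant median of 4.48. The same 2 arrays were again the highest of their groups, and the 3 stages overlapped. Its changes were -0.08, -0.12 (95% interval -0.51 to 0.27) and -0.20 in the 3 comparisons, none called (adjusted p = 0.816, 0.634 and 0.386). With the mean over both probe sets in place of the brighter one, Oaz2 was not called in malignant against premalignant (0.26, adjusted p = 0.249) or malignant against wild type arrays (0.18, adjusted p = 0.396), so the Oaz2 result rests on 1 probe set.

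Azin1, the antizyme inhibitor, resembles ornithine decarboxylase without its activity and binds antizyme in its place. Its brighter probe set 1450714_at read 7.49, 7.54, 7.48 and 7.75 on wild type arrays, 7.52, 8.15, 7.67, 7.41 and 6.99 on premalignant arrays and 6.77 to 8.04 on malignant arrays, with a malignant median of 7.40. Wild type arrays lay close together, and the other stages spread to both sides of them. No change passed: it was -0.02 (95% interval -0.48 to 0.44), -0.05 (-0.50 to 0.40) and -0.07 (-0.52 to 0.38) in the 3 comparisons (adjusted p = 0.960, 0.866 and 0.789). The second probe set, 1422702_at, read 7.41, 7.33, 7.81 and 7.75 on wild type arrays, 7.55, 7.98, 7.76, 7.92 and 7.43 on premalignant arrays and 6.28 to 7.92 on malignant arrays, with a malignant median of 7.03. Of the 13 malignant arrays 9 lay below every premalignant array. It was 1.58-fold lower in malignant than in premalignant arrays (log2 change -0.66, interval -1.11 to -0.20, adjusted p = 0.02), a call lost without premalignant replicate 2 (adjusted p = 0.058) or 4 (0.056), with median centring (0.051) and with spike centring (0.232). Blocking on replicate number also ended this call (-0.54, adjusted p = 0.214). Against wild type the change was -0.51 (interval -1.01 to -0.00, adjusted p = 0.077) in malignant arrays, and it passed without malignant replicate 1 (-0.58, adjusted p = 0.029) or 5 (-0.56, adjusted p = 0.042). Other alternatives weakened it, and over all of them the change was -0.59 to -0.11 and the adjusted p 0.029 to 0.811. The 2 probe sets varied together over the 13 lymphomas (r = 0.86, rho = 0.86), so they ranked the lymphomas alike while only one was called between stages.

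Sat1, the acetyltransferase that starts the return of spermine and spermidine to putrescine, had a lower mean in both transgenic stages than in wild type arrays, without a call in either. It read 9.28, 8.40, 9.05 and 9.45 on wild type arrays, 7.20, 8.66, 8.37, 8.41 and 8.39 on premalignant arrays and 8.02 to 9.54 on malignant arrays, with a malignant median of 8.62. Wild type replicate 2 was the lowest of its group and lay among the premalignant arrays, and premalignant replicate 1 was the lowest of all. The log2 change in premalignant against wild type arrays was -0.84 (SE 0.31, 95% interval -1.51 to -0.16, adjusted p = 0.066). With all arrays kept it passed in a fit of all 3 groups (-0.84, adjusted p = 0.039). It also passed without wild type replicate 2 (-1.05, adjusted p = 0.032) and without both arrays that stood apart (-0.80, adjusted p = 0.0051). Over all alternatives this change was -1.05 to -0.58 and its adjusted p was 0.0051 to 0.398. In malignant against wild type arrays the change of -0.41 (interval -0.88 to 0.06, adjusted p = 0.124) passed without wild type replicate 2 (-0.62, adjusted p = 0.031) or without malignant replicate 7 (-0.48, adjusted p = 0.039). Other alternatives weakened it, and over all of them the change was -0.62 to -0.01 and the adjusted p 0.031 to 0.971. In malignant against premalignant arrays it was 0.43 (interval -0.04 to 0.90, adjusted p = 0.133).

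Smox, the oxidase that turns spermine back into spermidine, was at the floor of the measurement. Its probe set 1424268_at stayed between 2.77 and 2.80 on wild type arrays, read 2.81, 4.11, 2.78, 2.79 and 2.76 on premalignant arrays and lay between 2.68 and 2.98 on malignant arrays. Premalignant replicate 2 alone exceeded log2 4, so Smox was not tested and no fold is given. Sms and Sat1 lie on the X chromosome, and Xist, the transcript of the inactive X, was above log2 4 on 2 of 4 wild type, 4 of 5 premalignant and 8 of 13 malignant arrays, with its part in their values not tested.

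Among the 13 lymphomas the genes differed in how far they spread. The SD of Odc1 was 0.76 in wild type, 0.61 in premalignant and 0.30 in malignant arrays for probe set 1438761_a_at, but wild type arrays were the tightest for the other Odc1 probe sets, at 0.32, 0.65 and 0.42 for 1437711_x_at and 0.11, 0.74 and 0.36 for 1427364_a_at. Srm spread most in malignant arrays, with SDs of 0.14, 0.19 and 0.34 in the same order, and so did Azin1 (1450714_at), with 0.13, 0.42 and 0.43. For correlations with other genes, Odc1 was read from probe set 1438761_a_at only, and the other Odc1 probe sets may differ. So read, Odc1 and Srm varied weakly together across lymphomas (r = 0.31, rho = 0.22). Their r was 0.08 to 0.50 when 1 array at a time was left out, the lowest without malignant replicate 2. Odc1 and Oaz2 (1426763_at) ran opposite ways (r = -0.59, rho = -0.80; -0.65 to -0.52 without 1 array at a time). This rests on 1 Oaz2 probe set. The other, 1426764_at, had r = 0.43 and rho = 0.32 with it, and was not set against Odc1. The r of Odc1 with Srm and with Oaz2 depended on how arrays were scaled, since the level of a whole array enters every gene. Centred on the hybridisation spikes, r was 0.77 for Odc1 with Srm and 0.26 for Odc1 with Oaz2. With Myc, r was 0.18 for Odc1 (0.48 with spike centring, and 0.03 to 0.35 without 1 array at a time) and 0.36 for Srm (0.58 without malignant replicate 11, and 0.23 or more without any other).

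The 3′ to 5′ difference of beta-actin, which was largest in malignant arrays, had r = -0.09 with Odc1, 0.25 with Srm and 0.59 with Azin1 across the lymphomas, the last being 0.34 with spike centring. The Odc1 probe sets 1427364_a_at and 1438761_a_at correlated at r = 0.82 over these arrays, and 1437711_x_at reached 0.70 with 1438761_a_at and 0.61 with 1427364_a_at. The tested genes whose levels were most like Odc1 over the 13 lymphomas were Phf10 (r = 0.86), Gspt1 (0.84), Slirp (0.84), Fabp5 (0.83) and Ddx1 (0.82). Those most like Srm were Mrps31 (0.90), Mrpl22 (0.89), Mrpl55 (0.89), Mrpl1 (0.88) and Ltn1 (0.88). All of these are descriptions over 13 arrays that share 1 normalisation. The genes named as most like Odc1 and Srm had the highest r among the 6437 genes tested, so this choice raises their r. Whether these r exceed what chance would give in so many genes was not tested. They were not recomputed with spike centring.

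**Figure D3:**
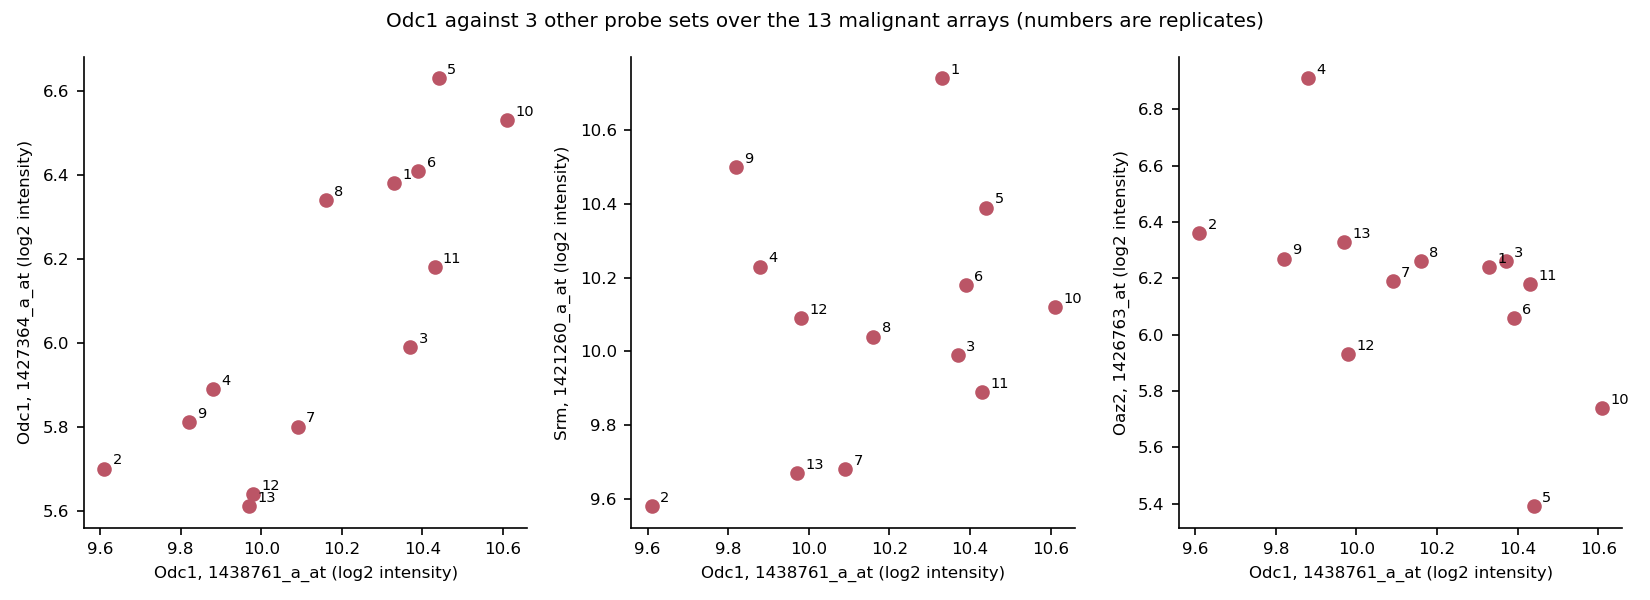
Log2 intensity of Odc1 (1438761_a_at, horizontal axis) against that of the Odc1 probe set 1427364_a_at, Srm and Oaz2 (1426763_at) on the 13 malignant arrays, 1 point per array with its replicate number. The Odc1 probe sets lie along a line (r = 0.82), Srm scatters (r = 0.31), and this Oaz2 probe set tends to be lower where Odc1 is higher (r = -0.59). The other Oaz2 probe set is not drawn.

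Around these 9 genes, 4 lists of neighbouring steps were examined, with 35 genes, of which 25 had a probe set of 1 symbol and 17 were tested. For the supply of ornithine and arginine, 2 of 3 genes tested were higher in premalignant against wild type arrays, 1 in malignant against premalignant and 2 in malignant against wild type arrays, beside 12.7%, 24.8% and 31.8% of all genes, and none was lower. Slc25a15, which carries ornithine across the inner mitochondrial membrane, was at least 2.08-fold higher in premalignant than in wild type arrays (adjusted p = 2.9e-04) and at least 2.52-fold higher in malignant than in wild type arrays (adjusted p = 8.6e-05), its wild type mean being below log2 4. Aldh18a1, which makes the glutamate semialdehyde that can become ornithine, was 1.91-fold higher in premalignant than in wild type (adjusted p = 0.0061) and 1.75-fold higher in malignant than in premalignant arrays (adjusted p = 5.4e-04). Oat, the ornithine aminotransferase, was called in no comparison. The arginases Arg1 and Arg2, which release ornithine from arginine, did not pass the filter.

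The list of the methionine cycle and the salvage of methylthioadenosine, the by-product that spermidine and spermine synthases leave behind, had 8 genes tested. Of these 1, 4 and 5 were higher and 0, 0 and 2 lower in the 3 comparisons, where 12.7%, 24.8% and 31.8% of all genes were higher and 14.1%, 17.3% and 29.7% lower, so that 1 of 8 in the first is near the background. They had median log2 changes of 0.26, 0.54 and 0.81 against -0.05, 0.09 and 0.04 over all genes. Mtap, which cleaves methylthioadenosine, averaged 6.20 ± 0.26, 6.44 ± 0.32 and 7.59 ± 0.55 in the 3 stages and was 2.22-fold higher in malignant than in premalignant arrays (adjusted p = 0.0011). Enoph1, a later enzyme of the same salvage, was 2.49-fold higher in malignant than in premalignant arrays (adjusted p = 3.0e-04). Neither passed in premalignant against wild type arrays (Mtap 0.24, adjusted p = 0.395; Enoph1 0.58, adjusted p = 0.062), although Enoph1 did without premalignant replicate 1 (0.74, adjusted p = 0.0055), without both arrays that stood apart (0.68, adjusted p = 0.012) and with the mean over its probe sets (0.39, adjusted p = 0.041). Ahcy, which removes S-adenosylhomocysteine, was 2.66-fold higher in premalignant than in wild type (adjusted p = 9.0e-04) and 1.76-fold higher in malignant than in premalignant arrays (adjusted p = 0.0055). Ahcyl1, related to it in sequence, was 1.82-fold higher in malignant than in premalignant arrays (adjusted p = 4.3e-05), and Mri1, another salvage enzyme, was 1.48-fold higher in malignant than in wild type arrays (adjusted p = 0.0034). Lower in malignant than in wild type arrays were the salvage enzyme Apip, 1.22-fold (adjusted p = 0.031), and Mat2b, a regulatory subunit of methionine adenosyltransferase, 1.34-fold (adjusted p = 0.017). Neither call outlasted median centring (adjusted p = 0.260 and 0.096), spike centring turned the sign of Apip to 0.11 (adjusted p = 0.760) and brought Mat2b to -0.03 (0.944), and both were lost without wild type replicate 2 (0.083 and 0.079), Apip also without replicate 1 (0.131) and Mat2b without replicate 4 (0.056). Blocking on replicate number ended the malignant against wild type calls of Apip (adjusted p = 0.151), Mat2b (0.101) and Mri1 (0.056).

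Among paralogues, breakdown and transport, 3 of 9 genes were tested. Atp13a3, a transporter that takes up polyamines, averaged 5.79 ± 0.31, 6.63 ± 0.10 and 7.83 ± 0.46 in the 3 stages, without overlap between any of them. It was 1.79-fold higher in premalignant than in wild type (adjusted p = 0.0033), 2.29-fold higher in malignant than in premalignant (adjusted p = 1.4e-04) and 4.09-fold higher in malignant than in wild type arrays (adjusted p = 7.7e-07). Its relative Atp13a2, of lysosomes, was called in no comparison. Slc3a2, the heavy chain of several amino acid transporters, was 1.48-fold lower in premalignant than in wild type arrays (adjusted p = 0.046) and 1.59-fold higher in malignant than in premalignant arrays (adjusted p = 5.2e-04), with no call in malignant against wild type arrays (adjusted p = 0.432). The first of these calls was lost without any of the 4 wild type arrays or premalignant replicates 3, 4 or 5, at adjusted p of 0.081 to 0.108. It was also lost with spike centring (0.740), no filter (0.085), every probe set tested on its own (0.051) and a block on replicate number (0.119).

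Spermidine is also the donor of the hypusine residue of the translation factor eIF5A. Eif5a averaged 12.00 ± 0.17, 12.86 ± 0.21 and 13.56 ± 0.13 in the 3 stages, again without overlap. It was 1.82-fold higher in premalignant than in wild type (adjusted p = 0.002), 1.63-fold higher in malignant than in premalignant (adjusted p = 2.5e-05) and 2.96-fold higher in malignant than in wild type arrays (adjusted p = 5.0e-10). Of the enzymes that make hypusine, Dohh was 1.73-fold higher in malignant than in premalignant (adjusted p = 0.0018) and 2.47-fold higher in malignant than in wild type arrays (adjusted p = 2.2e-05), and Dhps was called in no comparison.

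**Figure D4:**
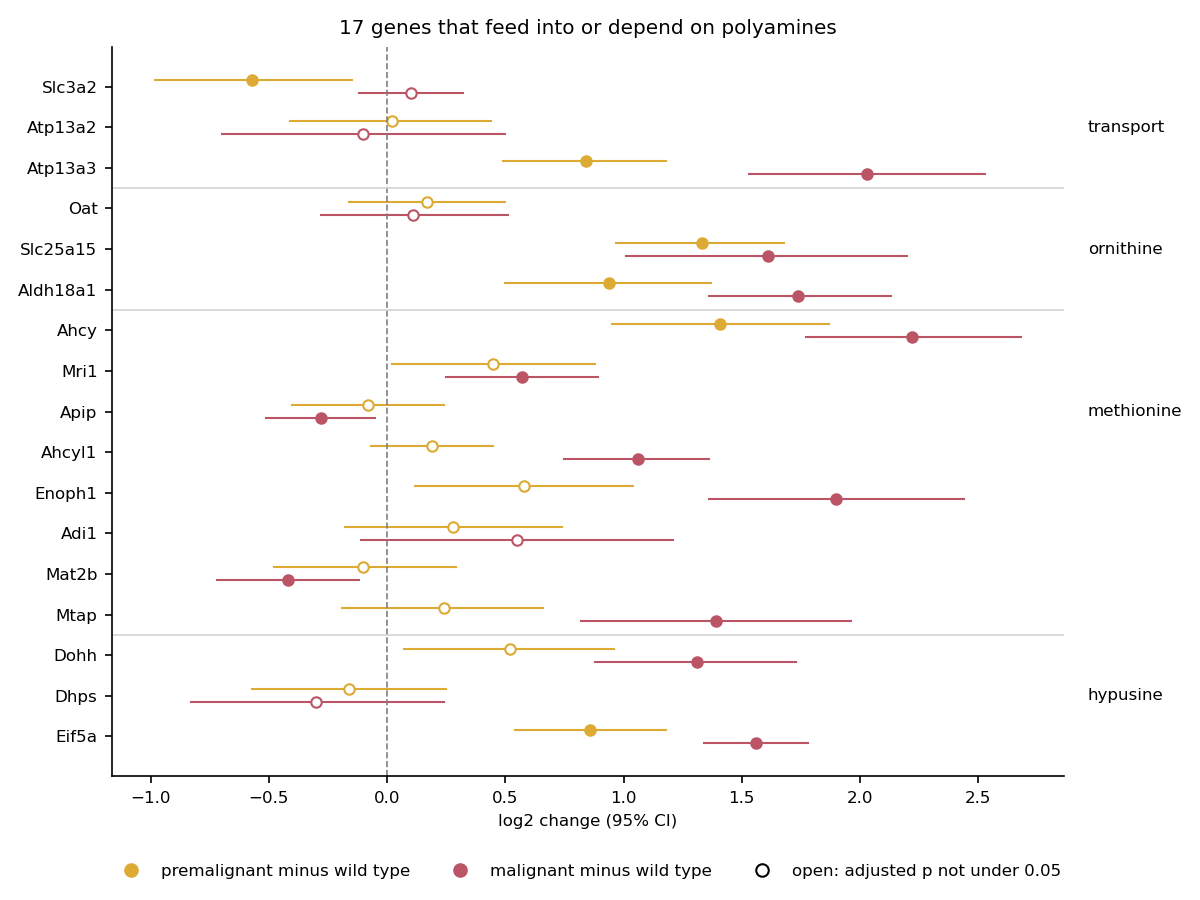
Log2 change of the 17 tested genes of 4 neighbouring lists in premalignant minus wild type and malignant minus wild type arrays, with 95% intervals from limma, filled where the adjusted p over all genes was under 0.05. Ahcy, Eif5a, Aldh18a1, Slc25a15 and Atp13a3 are higher in both comparisons, while Mtap, Enoph1, Ahcyl1, Dohh and Mri1 are filled in the malignant comparison and open in the premalignant one.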

How the data were processed

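The authors deposited 1 intensity per probe set and array, made with GCRMA per the submitters' processing notes, which corrects background, normalises arrays and summarises probes. The sources name no version. The deposited intensity values were on a linear scale, and log2 was taken here. Genes were named from the platform annotation: 20380 of 22690 probe sets had 1 symbol, 691 several, and 64 were controls, left out of the tests.

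Probe sets with log2 above 4 on at least 4 arrays were kept (10789). For 6437 genes with a kept probe set of 1 symbol, the brightest such probe set on average stood for the gene. Where a group averaged under log2 4, that level took its place and the fold is written as at least N-fold. Models of 2 groups each were fitted in R 4.3.3 by lmFit and eBayes of limma 3.58.1, tested two-sided, with Benjamini-Hochberg adjustment over all genes, or over all probe sets where a probe set is named, and a threshold of 0.05. Fits were tested on simulated data. The number of arrays limits the precision.

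The 9 genes, the neighbouring lists and the markers were chosen with earlier results of these data known. All 9 genes, every called gene of the neighbouring lists and the 5 genes most like Odc1 and Srm are named. Alternatives were another filter, none, median or spike centring, the mean over probe sets or every probe set, a fit of all 3 groups, a replicate block, and arrays left out. Amd1 was not analysed here.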

Additional observations from a re-analysis of the deposited data

Results flagged for a closer look

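In groups of 4 or 5 arrays, an array was marked when its gap to the nearest other array took up most of the range of its group. The groups share the same arrays, and some are probe sets of the same gene, so their marks are not independent. Chance marks about 1 in 20 for a single group, and whether the marks exceed chance was not tested. Of 60 groups examined 10 were marked. Premalignant replicate 1 gave 4 of them: Oaz2 (1426763_at) at 6.40 against 5.19 to 5.52 on the other premalignant arrays, Sat1 at 7.20 against 8.37 to 8.66, Apip at 5.60 against 5.11 to 5.18, and Eif5a at 12.49 against 12.94 to 12.98. Wild type replicate 2 gave Oaz2 (1426763_at) at 6.33 against 5.28 to 5.44 on the other wild type arrays, and the probe set shared by Oaz1 and Oaz1-ps at 10.91 against 10.27 to 10.28. Over all 6437 genes the deviations of these 2 arrays from their group means correlated at 0.48, and the other 19 pairs of wild type and premalignant arrays lay between -0.39 and 0.38. Premalignant replicate 2 gave Odc1 (1437711_x_at) at 8.79 against 7.21 to 7.61 and Smox at 4.11 against 2.76 to 2.81. Premalignant replicate 5 gave Ahcyl1 at 7.80 against 8.03 to 8.08. Wild type replicate 4 gave Mtap at 5.81 against 6.29 to 6.36.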

How the results depend on the processing

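The count of called polyamine genes was 1 in premalignant against wild type arrays. It was 3 in the 3-group fit, 2 with the stricter filter, 2 with median centring, 2 with the mean over probe sets, and 1 to 3 when each array was left out in turn. Without wild type replicate 2 it was 3, and without premalignant replicate 5 it was 2. Without both arrays that stood apart, chosen after seeing the data, it was 3. The count of 3 in malignant against premalignant arrays was 2 to 3, and that of 3 in malignant against wild type arrays 2 to 4, without 1 array. The replicate numbers did not pair the samples, since deviations of same-numbered arrays correlated at -0.113 to 0.21. With the replicate block, which used arrays with shared numbers only, the counts were 2 and 1 in the first and second comparison. In malignant against premalignant arrays Odc1 (0.90, adjusted p = 0.067), its probe set 1437711_x_at (0.96, 0.089) and Oaz2 (0.70, 0.076) no longer passed. Nor did the Sms probe set 1421052_a_at (0.38, 0.130) and the Azin1 probe set 1422702_at (-0.54, 0.214). Over all genes, 1725 calls became 560 with spike centring, 2635 by probe set and 1292 to 1804 without 1 array. In malignant against premalignant arrays 2711 became 4929 without a filter, 1771 with spike centring, 4658 by probe set, 1677 with the block and 2236 to 2739 without 1 array. In malignant against wild type arrays 3956 became 7921 without a filter, 6557 by probe set and 3585 to 3978. Spike centring moved the share of higher calls to 81.2%, 68.3% and 74.9%, against 47.4%, 58.9% and 51.7%, and the median of all genes to 0.20, 0.22 and 0.43, against -0.05, 0.09 and 0.04. Median centring gave 69.2% in the second comparison, and no filter 33.3% there and 26.8% in malignant against wild type arrays. One single-gene value changed sign with its call, Apip in malignant against wild type arrays (-0.28, and 0.11 with spike centring). The cause was not tested. Of 2981 values recomputed under alternatives 2760 stayed the same, which for a fitted change means the same direction and side of the threshold. Another 105 moved, which for a fitted change means a change of sign with no call either way. The rest were 62 weaker, 53 stronger and 1 reversed.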
